A study of Drosophila melanogaster with 8 samples.

Results

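Intronless protein-coding genes make their messenger RNA without splicing, and the promoters of 1559 of them were examined here for binding of NELF-E. They were chosen from the Ensembl BDGP6 annotation as protein-coding genes whose every transcript has 1 exon and whose start lies more than 500 bp from the transcript start of any other gene. These 1559 promoters are a subset of 2126 intronless genes and of 13945 protein-coding genes on chromosomes 2, 3, 4 and X. Each promoter was a window of 500 bp either side of the gene's most upstream start, and it was set against 7723 equally isolated promoters of genes with introns. The rule uses the annotation alone, although it was chosen with earlier results of these data known.

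NELF-E belongs to the Negative Elongation Factor, a complex that together with DSIF holds RNA polymerase II (Pol II) just downstream of the start site until the kinase CDK9 releases it. Pausing of this kind was first described at the Drosophila heat shock genes, several of which have no intron. Other well known intronless genes are the histone genes, the Notch targets of the Enhancer of split complex and a number of regulators of early development, and many are switched on quickly after a signal.

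Binding was measured by ChIP-seq in Kc167 cells, a single female line described as embryonic hemocytes, with an antibody against endogenous NELF-E. Mock cells were transfected without siRNA, and knockdown cells received 100 pmol of an siRNA that depletes AGO2 (Argonaute2), the protein at the core of Drosophila RNA interference, which also associates with chromatin. All cells were collected 3 days after transfection, with 2 replicates per treatment, and the peaks had been called separately in each replicate against its input. Nothing in the labels says that replicates came from separate cultures, so the spread between them may be technical. The 4 inputs were not analysed here.

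Each list holds only peaks that passed the peak caller's threshold, so a promoter without a peak is not a promoter without NELF-E. There were 7944 peaks in mock 1, 6933 in mock 2, 5904 in knockdown 1 and 6206 in knockdown 2. The genome-wide background at the summits, which follows depth, was 4.46, 2.19, 1.18 and 1.48 fragments in the same order. Both mock libraries were deeper than both knockdown libraries, so depth and treatment cannot be told apart in any comparison below. Of 9 isolated hemocyte marker genes, 5 had a peak in all 4 lists, as did 0 of 6 isolated markers of other cell types and 24.1% of all isolated promoters.

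Sequences around some starts are given as examples, which were picked after their values were seen and do not stand for all bound promoters. Each runs 5′ to 3′ from 70 bases before the start to the first 30 bases of the transcript and was read from the RefSeq Release 6 assembly (dm6). Capitals mark matches on either strand to a motif of the TATA box (TATAAA), the initiator (TCAGT), the GAGA element (GAGAG), the DNA replication-related element or DRE (TATCGATA), or the heat shock element (GAANNTTC), and matches that overlap join into 1 run. The first set holds 3 heat shock genes and 2 Notch targets, all with a NELF-E peak in every list and all with a TATA box that starts between base −30 and base −25.
Hsp23 (chr3L:9381812-9381911, plus strand): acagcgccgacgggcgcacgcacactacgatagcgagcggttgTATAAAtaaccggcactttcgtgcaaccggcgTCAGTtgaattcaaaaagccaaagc
Hsp27 (chr3L:9383993-9384092, plus strand): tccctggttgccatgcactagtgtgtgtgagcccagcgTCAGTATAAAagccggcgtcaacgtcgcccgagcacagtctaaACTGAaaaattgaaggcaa
Hsp68 (chr3R:24057281-24057380, minus strand): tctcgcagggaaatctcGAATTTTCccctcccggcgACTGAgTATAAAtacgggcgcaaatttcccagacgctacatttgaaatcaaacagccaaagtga
E(spl)m3-HLH (chr3R:26021753-26021852, plus strand): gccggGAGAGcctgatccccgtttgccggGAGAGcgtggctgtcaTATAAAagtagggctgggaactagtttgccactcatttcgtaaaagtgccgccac
E(spl)mbeta-HLH (chr3R:26005994-26006093, minus strand): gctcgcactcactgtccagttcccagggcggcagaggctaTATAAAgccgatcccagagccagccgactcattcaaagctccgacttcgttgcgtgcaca

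The second set holds bound promoters without a TATA box in these bases, with Toll-6 as a relative of Tollo that had no peak in any list. brk and CG13631, which had the highest mean ranks of all intronless promoters, held none of the motifs here.
Tollo (chr3L:15235549-15235648, plus strand): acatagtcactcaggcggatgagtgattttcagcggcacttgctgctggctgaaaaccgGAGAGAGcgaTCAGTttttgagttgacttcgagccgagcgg
Toll-6 (chr3L:15336622-15336721, plus strand): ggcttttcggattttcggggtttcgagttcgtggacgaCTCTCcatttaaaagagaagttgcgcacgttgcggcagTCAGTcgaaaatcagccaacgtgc
SoxN (chr2L:8825575-8825674, plus strand): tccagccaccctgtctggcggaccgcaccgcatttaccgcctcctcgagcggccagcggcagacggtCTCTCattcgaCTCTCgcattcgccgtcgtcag
kek1 (chr2L:12822758-12822857, minus strand): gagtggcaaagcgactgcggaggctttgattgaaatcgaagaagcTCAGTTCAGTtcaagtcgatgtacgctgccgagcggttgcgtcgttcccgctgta
brk (chrX:7307869-7307968, plus strand): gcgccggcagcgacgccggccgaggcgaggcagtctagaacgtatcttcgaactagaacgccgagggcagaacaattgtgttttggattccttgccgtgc
CG13631 (chr3R:24769281-24769380, plus strand): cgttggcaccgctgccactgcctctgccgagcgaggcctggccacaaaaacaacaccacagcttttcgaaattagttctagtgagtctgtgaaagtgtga

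The third set holds 2 of the highest ranked bound promoters with a DRE in these bases. eIF3f1 encodes a subunit of a translation initiation factor.
eIF3f1 (chr3R:4714153-4714252, minus strand): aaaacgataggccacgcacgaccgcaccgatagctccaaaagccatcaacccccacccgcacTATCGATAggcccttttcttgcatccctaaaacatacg
CG12171 (chr3R:5633557-5633656, plus strand): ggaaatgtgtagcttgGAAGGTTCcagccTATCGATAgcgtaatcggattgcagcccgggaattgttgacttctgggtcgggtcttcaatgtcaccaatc

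NELF-E peaks were found at far fewer intronless promoters than at promoters of genes with introns. A peak overlapped 240 intronless promoters in mock 1, which is 15.4% (95% Wilson interval 13.7 to 17.3), where 33% of all 9282 isolated promoters had one. In mock 2 it was 209 promoters or 13.4% (11.8 to 15.2), against 29.3% of all isolated promoters. Knockdown 1 had 184 (11.8%, 10.3 to 13.5; 25.7% of all) and knockdown 2 had 200 (12.8%, 11.3 to 14.6; 27.1% of all). The intervals cover counting error only. Genes with introns had a peak at 36.5%, 32.5%, 28.5% and 30.0% of their promoters. The intronless share was lower in 4 of 4 libraries, by 21.1, 19.1, 16.7 and 17.2 percentage points, a mean difference of −18.5 points (SD 2.01, n = 4 libraries; exact sign-flip permutation p = 0.125, two-sided, the smallest that 4 libraries allow).

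Gene length moved with this difference. The median intronless gene was 992 bp long (168 to 9524 bp), against 2587 bp for genes with introns. Among genes under 1000 bp, 39 of 786 intronless promoters (4.96%) and 69 of 1130 with introns (6.11%) had a peak in all 4 lists. From 1000 to under 2000 bp the shares were 13.2% and 17.1%, and from 2000 to under 3000 bp they were 22.8% and 26.3%. At 3000 bp or more, 20 of 48 intronless promoters (41.7%, 28.8 to 55.7) and 1364 of 3503 with introns (38.9%, 37.3 to 40.6) had one. Within each class the share rose with each step of length, and within each step the Wilson intervals of these all-list shares overlapped between the classes. In single lists they did not overlap in mock 1 from 1000 to under 3000 bp and in mock 2 from 1000 to under 2000 bp, where the intronless share was the lower one. With both classes limited to genes of 500 to 3000 bp, the difference shrank to −8.34 points. The part of length in the lower share was not tested beyond these values.

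**Figure D1:**
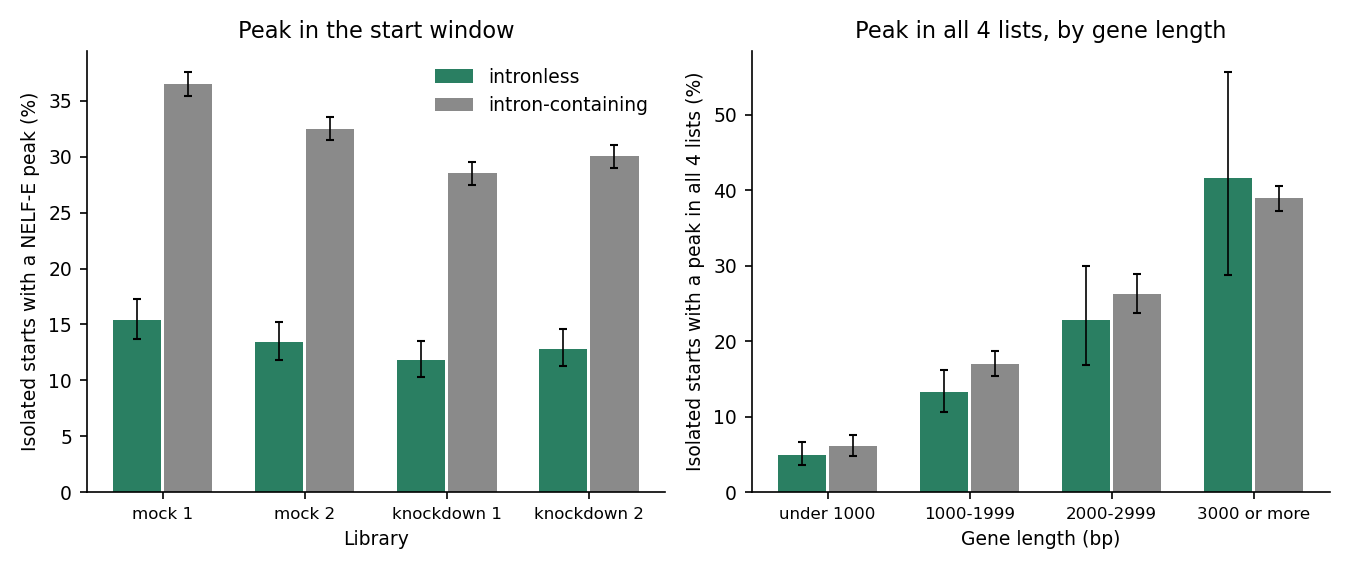
Left, percentage of isolated promoters with a NELF-E peak within 500 bp of the start, by library, for intronless genes (green) and genes with introns (grey). Right, percentage with a peak in all 4 lists by gene length. Error bars are 95% Wilson intervals. The intronless share was lower in each library (12.8% against 30.0% in knockdown 2), while at 3000 bp or more the classes were at 41.7% and 38.9%.

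All 4 lists had a peak at 170 intronless promoters (10.9%), where the share over all isolated promoters was 24.1%. Another 24 promoters had a peak in 3 lists, 29 in 2 lists and 23 in 1 list, and 1313 (84.2%) had none. Of the 246 promoters with any peak, 69.1% had one in all 4 lists, against 71.8% of those of genes with introns.

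The share of bound promoters also moved with position in the genome, in both classes. Of 515 intronless genes whose start lies inside another gene, 33 (6.41%, 4.60 to 8.86) had a peak in all 4 lists, against 137 of 1044 (13.1%, 11.2 to 15.3) that start outside other genes. Genes with introns had the same order, with 166 of 1160 (14.3%) inside and 1898 of 6563 (28.9%) outside other genes. The intronless share was 7.38% on 2L and 7.67% on 3L, and 13.4%, 13.2% and 13.0% on 2R, 3R and X. At genes with introns it was 25.1% on 2L and 23.9% on 3L, and 27.1%, 25.2% and 34.6% on 2R, 3R and X. The single isolated intronless gene of chromosome 4 had a peak in mock 1 only. Just inside the isolation limit, up to 600 bp from the next start, 18 of 60 intronless promoters had a peak in all 4 lists. Just outside it, over 400 bp from the next start, 22 of 59 did. The share over all isolated intronless promoters was 10.9%. With another start this close, a neighbour's peak can reach into the window. At BORCS5, CG8281 and Spase22-23, which are among the 18, the summit was nearer to another gene in each list. How many of the other counted peaks belonged to a neighbour was not tested.

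Where a peak was present, its summit lay downstream of the start, further than at genes with introns. The median summit at intronless promoters was at +113, +122, +113.5 and +125 bp in mock 1, mock 2, knockdown 1 and knockdown 2. At genes with introns it was at +89, +91, +94 and +97 bp. All 4 libraries placed it further downstream at intronless genes, by a mean of 25.6 bp (SD 4.99, n = 4; exact sign-flip permutation p = 0.125). Within genes of 500 to 3000 bp, however, the difference was 0.875 bp (exact permutation p = 0.875), so the shift did not hold among genes of like length. Summits downstream of the start made up 85.2% to 88.0% of the intronless peaks. The chromatin had been sheared to an average of 300 bp, which limits how finely a summit can be placed.

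Intronless genes are short enough for a peak to span them, but this was rare. The peak covered the whole gene at 6, 1, 3 and 2 promoters in the 4 lists, and the summit lay beyond the gene's end at 2 promoters in each list. Between 92.3% and 94.6% of the summits were nearer to the intronless gene's own start than to that of another gene. The remaining summits were nearer to a neighbouring start, and such cases are named where they occur.

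**Figure D2:**
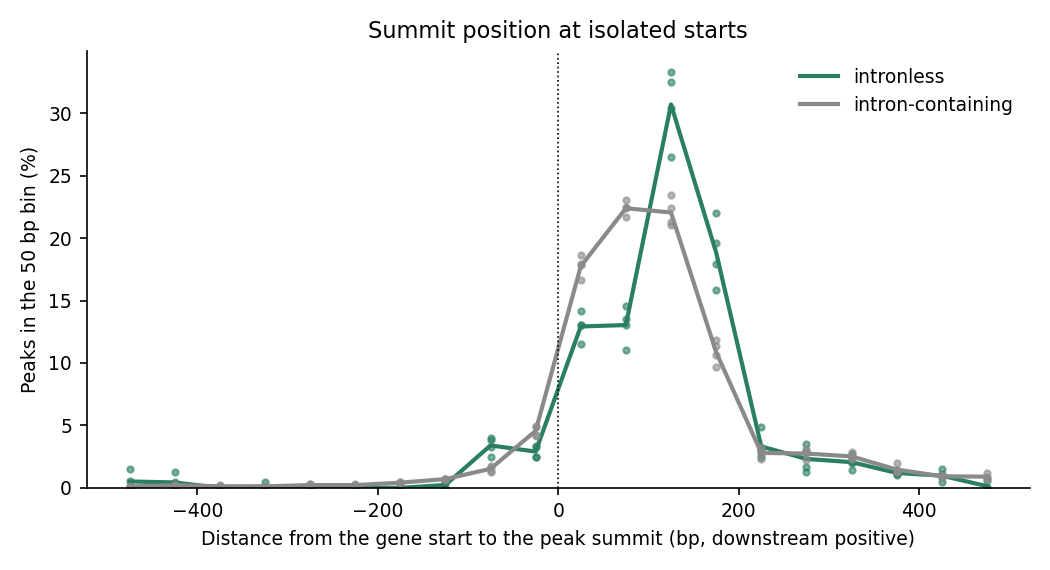
Percentage of peaks by distance from the gene start to the summit in bins of 50 bp, for intronless genes (green) and genes with introns (grey). Points are the 4 libraries and lines their means. Intronless summits were most frequent between 100 and 200 bp downstream, with medians from 113 to 125 bp against 89 to 97 bp.

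Peak width followed peak strength. Median widths at intronless promoters were 508, 451, 436 and 435 bp in mock 1, mock 2, knockdown 1 and knockdown 2, against 530, 458, 440 and 477 bp at genes with introns. The mean difference of −18.75 bp (SD 17.4, n = 4; exact permutation p = 0.125) turned to +41.1 bp among genes of 500 to 3000 bp. In the lowest-scoring 25% of each list, intronless peaks had median widths of 214.5 to 240 bp and median summits at +114 to +140.5 bp. In the highest-scoring 25% the widths were 713 to 769 bp, and the summits lay closer to the start, at +54 to +94.5 bp. The strongest intronless peaks were thus both the widest and the nearest to the start, as they were at genes with introns, where the highest-scoring 25% had summits at +57 to +61.5 bp.

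Strength was compared as the percentile of a peak's score within its own list, because scores depend on depth. The score is 10 times the −log10 q-value of the peak. The median percentile at intronless promoters was 59.0, 59.9, 63.3 and 62.7 in mock 1, mock 2, knockdown 1 and knockdown 2, against 63.2, 61.5, 60.0 and 60.8 at genes with introns. Intronless minus intron-containing, the difference was −4.15 and −1.63 points in the mock libraries and 3.33 and 1.84 points in the knockdown libraries. Its sign turned with treatment and depth, which cannot be told apart, and the values cancel in the mean (−0.154 points, SD 3.38; exact permutation p = 1). Among genes of 500 to 3000 bp the intronless peaks ranked 7.94 points higher (exact permutation p = 0.125).

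The motifs printed above were then counted in the 250 bases before and 50 bases after each start. The DRE, the site of the factor DREF and common at genes for general cell functions, was in 27 of the 170 intronless promoters with a peak in all 4 lists (15.9%) and in 19 of the 1313 with none (1.45%). At genes with introns it was in 13.5% and 2.52%, and over all protein-coding promoters in 9.36%. Read the other way, 27 of the 57 intronless promoters with a DRE (47.4%) had a peak in all 4 lists, against 143 of 1502 without it (9.52%). The genes of the 27 bound DRE promoters include Rpn12 of the proteasome, the Wnt pathway protein dsh, the autophagy gene Atg13, the primase subunit Prim2 and the mitochondrial ribosomal protein mRpS29. At 1 of the 27, CG8281, the summit lay at a mean of −603 bp, outside the window and nearer to another gene.

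The GAGA element, the site of GAGA factor, was in 39.4% of the intronless promoters with a peak in all 4 lists and in 25.9% of those with none, with 29.7% over all protein-coding promoters. At genes with introns these shares were closer, at 35.8% and 32.2%. The element moved with the place of the summit. The 67 bound intronless promoters with a GAGA element had median summits at +42, +55, +49 and +49 bp in mock 1, mock 2, knockdown 1 and knockdown 2. The 103 without it had theirs at +137, +140, +136 and +140 bp. The peaks with the element were also higher in their lists, with median percentiles of 78.3 to 84.8 against 58.1 to 64.2. Genes with introns had median summits at +46 to +54 bp with the element and +110 to +114 bp without. Their median percentiles were 73.7 to 82.7 with it and 57.6 to 70.2 without. The summits of the 27 DRE promoters lay at +125 to +144 bp, among the values of promoters without a GAGA element.

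The other motifs differed less or ran the other way. TATAAA was in 47.6% of the bound and 54.8% of the unbound intronless promoters (45.8% of all promoters). At the usual place of a TATA box, starting at −35 to −20 on the sense strand, it was in 8.24% and 13.9%, against 7.01% of all promoters. Genes with introns had it there at 2.86% of the bound and 10.2% of the unbound promoters. TCAGT was in 47.1% and 54% of the intronless promoters (51.5% of all). At the place of an initiator, starting at −5 to 5 on the sense strand, it was in 11.8% of the bound and 8.07% of the unbound intronless promoters (10.9% of all). The heat shock element was in 11.8% and 11.4% of the intronless promoters (9.37% of all). Motif counts are descriptions without a test, the split of summits and bound shares by motif was added after the counts had been seen, and a match is not evidence of a bound factor.

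**Figure D3:**
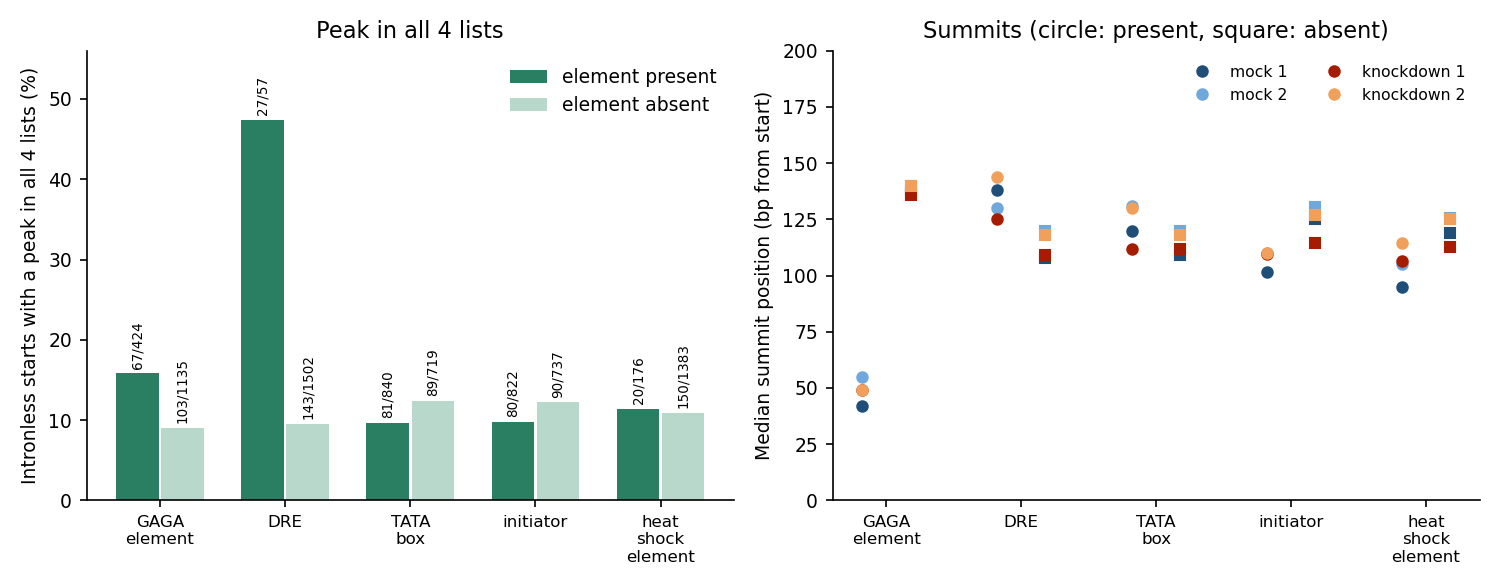
Left, percentage of intronless promoters with a NELF-E peak in all 4 lists, with and without each sequence element within 250 bases before to 50 bases after the start, with numbers of promoters above the bars. Right, median summit position of the promoters with a peak in all 4 lists, by library, with the element (circles) or without it (squares). A peak was in all 4 lists at 27 of 57 DRE promoters, and summits lay at +42 to +55 bp with a GAGA element against +136 to +140 bp without.

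The highest ranked intronless promoters belonged to CG13631, brk, Arc1, Tollo, kek1, Toll-7, Spn27A, CG12290, CG9436 and CG14629. Of these, brk encodes the Brinker repressor of Dpp target genes, and its peak was 19.3, 32.5, 61.4 and 33.5 times the local background in mock 1, mock 2, knockdown 1 and knockdown 2. The summits lay close to the brk start, at −28, −51, +29 and −21 bp, and the percentiles were 98.9, 99.7, 99.3 and 98.1. Folds are not compared between libraries, since the median fold at intronless promoters was 6.84, 7.99, 10.1 and 9.50 in the same order and so moved with depth. CG13631 had folds of 19.2, 28.1, 45.8 and 47.2 and percentiles of 98.8, 99.6, 99.1 and 99.8, with summits from −4 to +27 bp. Its peak was also among the 3 widest, at 1580, 1486, 1393 and 1305 bp. The other very wide peaks were those of Gadd45, a stress response gene, at 1241 to 1755 bp, and of E(spl)mbeta-HLH, at 1341 to 2219 bp.

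Among the same 10, kek1 encodes a membrane protein that inhibits the EGF receptor, and its peak had percentiles of 95.4, 98.0, 99.5 and 99.8. Arc1, which encodes a capsid-forming relative of retroviral Gag proteins, reached 96.1, 98.6, 99.6 and 99.6. Spn27A, a serpin that restrains the melanization cascade, reached 99.9, 95.5, 97.4 and 97.7. CG14629 stood at 90.3 in mock 1 and at 99.2 to 99.7 in the other lists, the widest range of the 10. All 10 had a percentile of 90.3 or more in each list, and mock and knockdown percentiles overlapped at 7 of them. At Arc1 and kek1 both knockdown percentiles were above both mock percentiles, and at Tollo both were below.

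**Figure D4:**
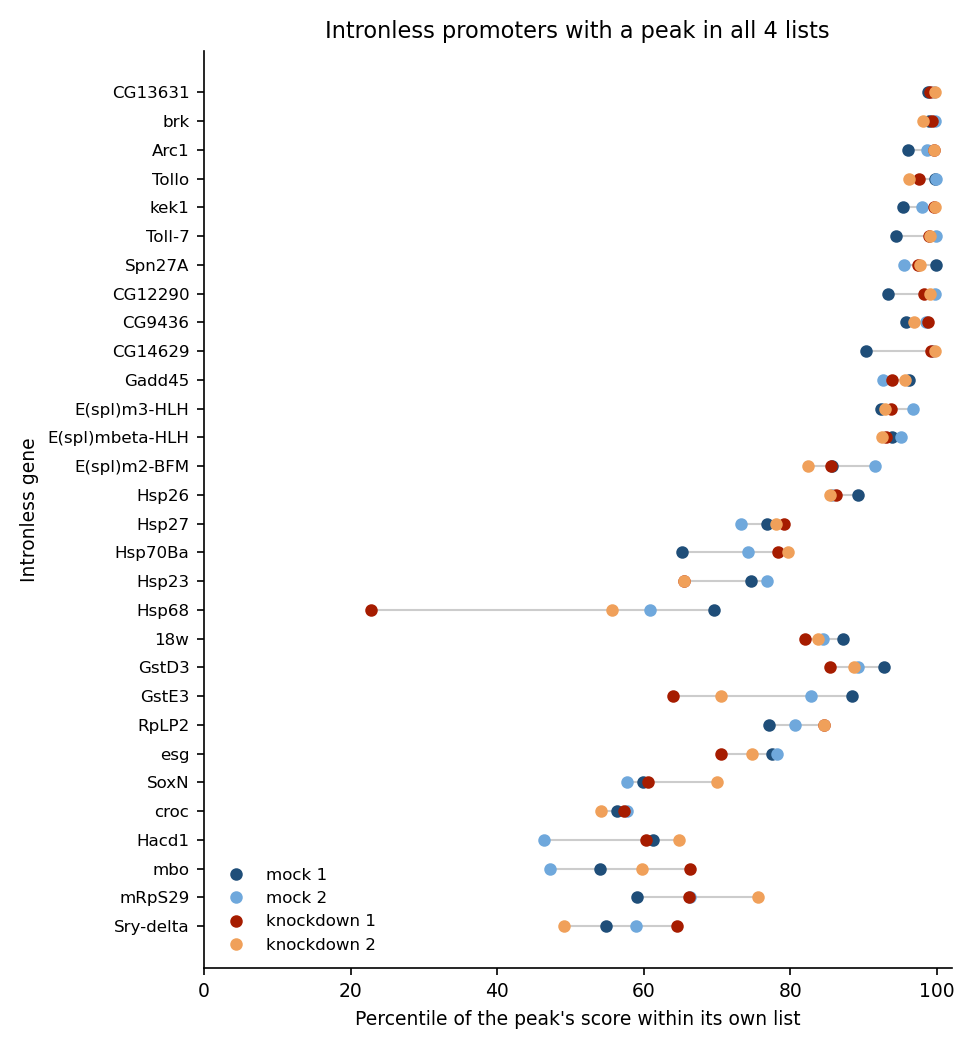
Percentile of the peak's score within its own list for 30 named intronless promoters with a peak in all 4 lists. Points are single libraries and the grey line is their range. The 10 highest ranked promoters stay at or above 90.3, while Hsp68 runs from 22.7 to 69.5.

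Of 12 isolated intronless heat shock genes, 6 had a peak in all 4 lists and 6 had none (24.1% of all isolated promoters had one in all 4). Hsp26, Hsp27 and Hsp23 encode small chaperones and Hsp68 and the Hsp70 genes larger ones. Hsp26 ranked highest, with folds of 19.2, 21.9, 26.3 and 22.5 and percentiles of 89.2, 85.7, 86.3 and 85.4 in mock 1, mock 2, knockdown 1 and knockdown 2. Hsp27 stood at 76.9, 73.2, 79.1 and 78.1, with its summit at +32 to +53 bp. Hsp23 had summits at −60, −68, −60 and −69 bp, upstream of the annotated start, and percentiles of 74.7, 76.8, 65.4 and 65.5. Hsp68 had percentiles of 69.5, 60.9, 22.7 and 55.7, so 1 knockdown library stood apart from the other 3.

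The Hsp70 genes are near-identical copies, and the authors removed reads that map to several places. Peaks stood at Hsp70Ba (summits at −76 or −77 bp) and Hsp70Bb (+152 to +186 bp) and at none of the other copies, which cannot be read as a difference between the genes. The same limit holds for the histone genes. All 23 isolated intronless histone genes were copies of the linker histone gene His1 in the repeated histone cluster, and none had a peak in any list.

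Of the 15 intronless genes of the Enhancer of split and Bearded family, which act in Notch signalling, 3 (20%) had a peak in all 4 lists, against 10.9% of intronless and 24.1% of all isolated promoters. E(spl)m3-HLH, a bHLH repressor, had percentiles of 92.3, 96.8, 93.7 and 92.9 and E(spl)mbeta-HLH 93.9, 95.1, 93.1 and 92.5. E(spl)m2-BFM, of the Bearded type, had 85.7, 91.5, 85.5 and 82.4. These promoters ranked high in each library, while E(spl)m7-HLH had a weak peak in 3 lists (46.7 in mock 1, 41.1 in mock 2, 18.3 in knockdown 2) and Tom a peak in mock 1 only. The other 10 genes of the family had none. E(spl)m3-HLH and E(spl)mbeta-HLH both carry the TATA box shown above, and their summits lay within 43 bp of the start.

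Of 18 intronless genes from a fixed list of transcription factors, 3 (16.7%) had a peak in all 4 lists, a share between the same 10.9% and 24.1%. The list was not complete. It left out brk and the bHLH genes of the Enhancer of split complex. Of these, brk, E(spl)m3-HLH and E(spl)mbeta-HLH were bound in all 4 lists. E(spl)m7-HLH had a peak in 3 lists, and E(spl)m5-HLH, E(spl)m8-HLH, E(spl)mgamma-HLH and E(spl)mdelta-HLH had none. The share is therefore not that of all intronless transcription factors. The Snail family gene esg stood at 77.5, 78.1, 70.5 and 74.8, the Sox gene SoxN at 59.9, 57.7, 60.6 and 70, and the forkhead gene croc at 56.3, 57.7, 57.3 and 54.1. slp1 had a peak in mock 1 only (percentile 5.66), and 14 genes had none. No peak was also the rule among genes for tissue-specific products, as it was for 84.2% of all intronless promoters. None of 10 antimicrobial and immune peptide genes and none of 4 eggshell genes (Vm26Aa, Vm26Ac, Vm32E and Vm34Ca) had one, and of 28 chemosensory receptor genes only Ir48c had one, in mock 2, with a summit nearer to another gene. Of 14 sperm and male-specific transcripts, Mst57Dc and Sfp96F shared 1 peak and 12 had none.

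Among 6 genes listed by symbol as early zygotic, Sry-delta had a peak in all 4 lists (percentiles 54.8, 59.0, 64.5 and 49.1). The listed genes nullo, bnk, halo, sisA and term had none. The time of expression of these genes was not checked, so Sry-delta may not belong with the others. The cell death gene rpr had a peak in mock 1 and knockdown 2 (percentiles 17.5 and 6.48), and its neighbours grim and skl had none. Of 4 intronless cytoplasmic ribosomal protein genes, RpLP2 was bound (77.0, 80.7, 84.5 and 84.5), and RpL10Aa, RpL37-2 and RpS10a were not. Of 42 isolated ribosomal protein genes with introns, 35 had a peak in all 4 lists. Of 3 mitochondrial ribosomal protein genes, mRpS29 was bound in all 4 lists (59.0, 66.3, 66.2 and 75.6), mRpS34 in mock 1 and knockdown 2, and mRpL41 in none.

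A further 4 families were chosen after their values were seen, and their counts stand beside the 10.9% of intronless and 24.1% of all isolated promoters with a peak in all 4 lists. Of 15 intronless glutathione S-transferase genes, which encode detoxifying enzymes, 8 had a peak in all 4 lists and GstD2, GstD6, GstD8, GstE4 and GstE5 had none. GstD3 stood at 92.8, 89.2, 85.5 and 88.6, with its summit within 13 bp of the start. GstD4, with a peak in 3 lists, shared that peak. Among the 8, the highest-scoring peak at GstE2 was that of its neighbour GstE10 in each list. At GstE7 it was that of GstE6 in both mock lists. These values were not measured at the gene's own start, so the count of 8 includes promoters read from a neighbour's peak. Of 4 intronless Toll receptor genes, Tollo (99.7, 99.9, 97.5 and 96.1), Toll-7 (94.4, 99.8, 98.9 and 99.0) and 18w (87.2, 84.5, 82.0 and 83.8) were bound and Toll-6 was not. Of 15 neprilysin-like peptidase genes 4 (26.7%) had a peak in all 4 lists, but Nepl19 and Nepl20 shared 1 peak. kek1 was the only isolated intronless gene of the kekkon family.

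The summits farthest from the start were mostly those of neighbours. At Spase22-23, GstE2 and Nepl20 they lay upstream, at −1042 to −675 bp, and nearer to mask, GstE10 and Nepl19. The summits at NdufV3 (+648 to +691 bp) and Sfp96F (+434 to +453 bp) were also nearer to other genes. At the septin gene pnut the summits lay at +644, +642, +644 and +752 bp, inside the gene and not nearer to another gene's start. The percentiles were 80.6, 81.8, 86.9 and 86.7. pnut has 2 annotated starts and the distances are from the most upstream one, so the distance to the nearer start may be smaller. At 160 intronless promoters the highest-scoring peak was nearest to the gene's own start in all 4 lists, a count chosen after the data had been seen. Lower-scoring peaks in the same window were not read for this count.

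To ask how depletion of AGO2 changes NELF-E at these promoters, mock and knockdown lists were compared. Fewer intronless promoters had a peak in knockdown (12.3% ± 0.726) than in mock cells (14.4% ± 1.41, SD, n = 2 each), a difference of −2.08 points (exact permutation of labels, two-sided p = 0.333, the smallest that 2 against 2 allow). Between lists cut to the same number of peaks the difference was −0.160 points. The median width was 435.5 bp ± 0.707 against 479.5 bp ± 40.3, a difference of −44 bp (exact permutation p = 0.333). Between the lists cut to the same number of peaks the width difference was larger, at −73.75 bp. The median summit differed by 1.75 bp (exact permutation p = 0.667). None of these 3 differences can be called with 2 libraries per treatment, and the presence and width values cannot be told apart from depth. In fragments, the median intronless summit held 87, 56, 36.5 and 38 in mock 1, mock 2, knockdown 1 and knockdown 2.

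Both mock lists and no knockdown list had a peak at 15 intronless promoters (0.962%, where the share over all isolated promoters was 2.13%). The reverse was found at 0 intronless promoters, with 0.0108% over all isolated promoters. As a share of promoters with any peak, mock-only promoters made up 6.10% at intronless genes and 6.37% at genes with introns. Their peaks were weak, with median percentiles of 28.7 in mock 1 and 22.5 in mock 2. The highest were at CG13560, CG9643, Klp64D, CG4570 and alphaTub84D. The CG13560 peak (percentiles 92.7 and 92.0) had its summit 766 bp upstream and nearer to egl. Klp64D, a kinesin subunit gene, stood at 30.1 and 29, and the alpha tubulin gene alphaTub84D at 53.1 and 4.29. The count fell to 5 with lists of equal length and to 7 with an isolation limit of 1000 bp. It rose to 32 without mock 2 and to 29 without knockdown 2, where the remaining lists set fewer conditions. The shares over all isolated promoters were not computed under these settings.

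Among promoters in all 4 lists, intronless ones ranked higher in the knockdown lists than in the mock lists more often than lower. Peaks were ranked from 0 to 100 over the 2234 isolated promoters with a peak in all 4 lists. Both knockdown ranks lay above both mock ranks at 63 of the 170 intronless promoters (37.1%), where the share over all 2234 was 22.4%. Both lay below at 15 (8.82%), where the share over all was 19.5%. For genes with introns the counts were 438 (21.2%) and 420 (20.3%) of 2064. The median intronless rank was 43.4 in mock 1, 48.6 in mock 2, 51.9 in knockdown 1 and 52.3 in knockdown 2, while that of genes with introns stayed between 49.7 and 50.6. The lowest median was that of the deepest library, so this order is also close to that of depth, and treatment and depth cannot be told apart. With ranks taken from the fold, a choice made after the data had been seen, the intronless counts were 63 (37.1%) and 19 (11.2%). The shares over all 2234 were then 23.7% and 22.7%. Among genes of 500 to 3000 bp they were 53 and 12 of 143 intronless promoters, and 154 (22.0%) and 107 (15.3%) of 700 with introns, which leaned the same way. Ranked anew among genes of that length, 45 of the 143 intronless promoters were above and 14 below. With peaks that cover the start base, 40 of 110 intronless promoters ranked higher and 10 lower. Dropping 1 library leaves fewer conditions to meet. The counts above and below became 101 and 26 of 175 without mock 2, and 97 and 42 of 184 without knockdown 1. They were 97 and 30 of 175 without knockdown 2, and 79 and 38 of 170 without mock 1. The share over all isolated promoters was not computed for the new ranking by length, for peaks covering the start base or without 1 library. Those counts therefore cannot be set against it. No test over promoters was made.

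The widest gaps in rank upward were at SoxN, Hacd1 and mbo. SoxN ranked at 28.9 and 34.9 in the mock libraries and at 47.0 and 56 in knockdown libraries. Hacd1, a gene of the 3-hydroxyacyl-CoA dehydratase family by its name, had 31.0 and 21.8 against 46.8 and 49.1. The nucleoporin gene mbo had 21.0 and 22.8 against 53.7 and 42.8. The ranks of these 3 promoters thus ran from 21.0 to 34.9 in the mock libraries and from 42.8 to 56 in the knockdown libraries.

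The widest gaps downward were at BORCS5, GstE3 and GstE7. GstE3 ranked at 75.2 and 70.2 in the mock libraries and at 50.7 and 56.6 in the knockdown libraries. Its peaks lay at +47 to +77 bp, at its own start. BORCS5 went from 96.8 and 85.0 to 72.1 and 61.1, with a summit nearer to CG15739. At GstE7 the highest-scoring peak in the mock lists was that of GstE6 (summits at −835 and −828 bp). It was 1582 bp wide in mock 1 and 602 bp in mock 2. Mock 2 held 2 peaks in the GstE7 window, and only the highest-scoring one was read. In the knockdown lists GstE7 had a peak of its own at +49 and +50 bp. Its ranks of 49.8, 48.9, 31.6 and 23.2 therefore do not belong to 1 peak.

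**Figure D5:**
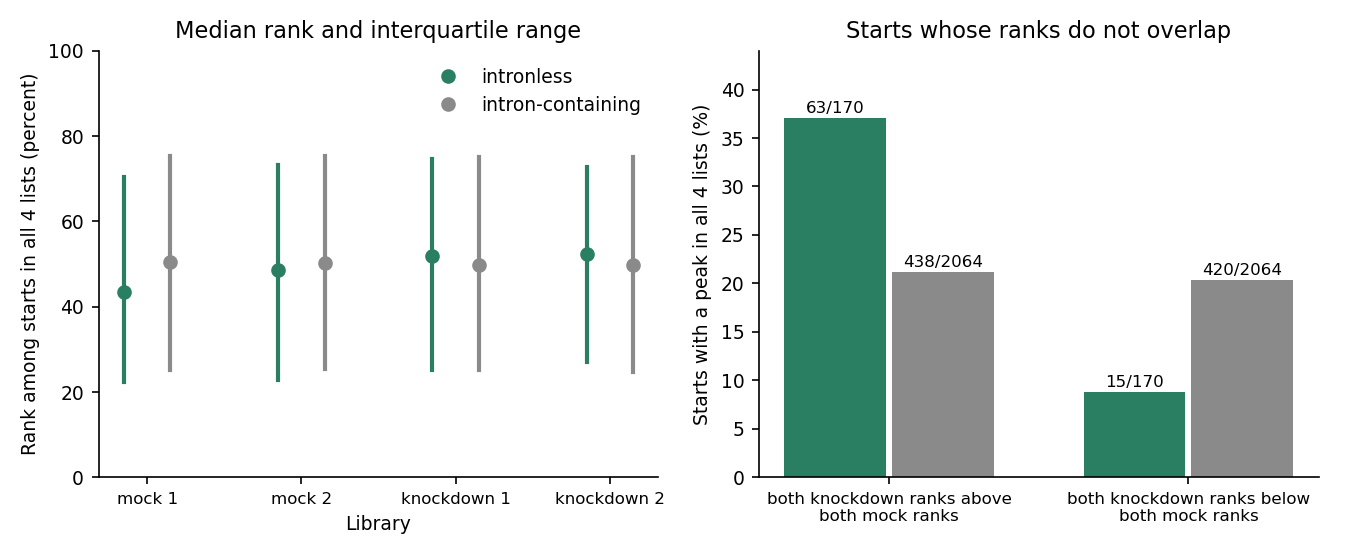
Left, median rank (points) and interquartile range (lines) of intronless promoters (green) and promoters of genes with introns (grey) among the 2234 isolated promoters with a peak in all 4 lists, by library. Right, percentage of these promoters whose 2 knockdown ranks lay above, or below, both mock ranks. Intronless promoters were above at 63 and below at 15 of 170.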

How the data were processed

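NELF-E ChIP-seq peak lists of 2 mock and 2 AGO2 knockdown libraries were used. The authors trimmed reads with cutadapt (version 1.10 per the labels), aligned them to dm6 with Bowtie2, removed reads of mapping quality under 20 with samtools and duplicates with Picard (version 2.11.0), and called punctate peaks of each replicate against input with MACS2 2.1.1.20160309. The fragment length and genome size of the NELF-E calls are not given in the sources used here. The deposited score is the −log10 q-value multiplied by 10 and truncated, and the deposited fold is the ratio of the summit pileup to the local background. The −log10 p-value and −log10 q-value of each summit are also the authors' values, with a lowest −log10 q of 1.30 to 1.32 in each list.

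Starts were taken from Ensembl BDGP6.54 (release 115; 18358 genes and 35694 transcripts without transposable elements), whose coordinates are those of dm6. A promoter had a peak if one overlapped its window by at least 1 bp, and the highest-scoring peak gave width, summit and percentile. Depth was read by solving fold and p-value for whole fragments, which matched 98.7% to 99.8% of peaks within 0.005, with a pileup scale of 0.919 in mock 1. Percentiles, not scores, were compared between lists. A gene with several starts was represented by the most upstream one. The study's count model (DiffBind with edgeR) needs read counts, which peak lists do not hold, and was not used. Classes were compared within libraries by an exact sign-flip permutation test over 4 libraries, and treatments by an exact permutation of labels, both two-sided. Genes are not replicates, so no test was run over them. Alternatives changed the window, the overlap, the isolation limit, the list length, the score minimum (50), the number of starts and the gene length, left out single libraries and used the replicate number as a block.

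The promoters, gene groups and motifs were chosen with earlier results of these data known. Genes were named by rule. These were the 10 highest mean percentiles, the 5 highest mock-only peaks, the 3 widest rank gaps in each direction, the 3 widest peaks, the 3 farthest summits on each side, and 2 to 4 members of each gene group with those lacking a peak where 5 or fewer did. Promoters to print were picked after their values were seen. The reading of windows was tested on simulated data. Python 3.11.15, pandas 2.3.3, numpy 2.4.6, scipy 1.17.1 and matplotlib 3.10.9 were used. The 4 inputs and genes off the chromosome arms were not analysed here.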

Additional observations from a re-analysis of the deposited data

How the results depend on the processing

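Of 174 alternative values, 15 reversed and 14 counts moved by over 1.5 times. The other 145 kept their direction and, for counts, stayed within 1.5 times, although the size of several differences changed more than that. The lower share of intronless promoters with a peak held under each alternative run, from −18.9 to −8.34 points, and from −19.1 to −17.7 points without 1 library. The smallest value came with gene length limited to 500 to 3000 bp. The summit difference between classes ranged from 0.875 bp, under the same limit, to 32.5 bp. No test here could pass 0.05, since the smallest p-values are 0.125 for the classes (exact sign-flip permutation) and 0.333 for the treatments (exact permutation of labels). A peak missing from a shallow list is not an absent protein. The causes of the changes below were not tested.

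The percentile difference between classes (−0.154 points) reversed to 0.257 with a window of 1000 bp, 0.273 with lists of equal length, 2.12 with genes of 1 distinct start and 7.94 with the length limit, and ranged from −1.31 to 1.18 when 1 library was left out. The width difference between classes (−18.75 bp) reversed to 3 bp with 1 distinct start and 41.1 bp with the length limit. With peaks covering the start base, the width difference of knockdown minus mock reversed to 8 bp, the count in all 4 lists moved to 110 and the count ranked higher in knockdown to 40. The summit difference of knockdown minus mock (1.75 bp) reversed to −0.25 bp with summits inside the window, −4 bp with peaks covering the start, −1 bp with an isolation limit of 1000 bp and −0.75 bp with summits nearest their own start, and ranged from −4 to 7.5 bp without 1 library. Mock-only promoters numbered 7 with the 1000 bp isolation limit, 5 with equal list lengths and 20 to 32 without 1 library. Promoters ranked lower in knockdown numbered 25 with a window of 1000 bp and 26 to 42 without 1 library, and those ranked higher 79 to 101. For these counts the shares over all isolated promoters were not computed under the same settings.

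With the replicate number as a block, the differences of knockdown minus mock were the same by arithmetic (−2.08 points, −44 bp and 1.75 bp), and the smallest p-value of an exact sign-flip permutation over the pairs is 0.5. Libraries of the same number did not deviate together over the 2234 promoters in all 4 lists (r = −0.0551). This value cannot tell whether they came from the same culture, which the labels do not say.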
